A study of Drosophila melanogaster with 36 samples.

Results

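The comparison described here set 3 arrays of INV1 females against 3 arrays of REV1 females of Drosophila melanogaster. These 6 arrays, chosen by the strain and sex in their labels, were among 36 one-colour arrays that covered 6 strains and both sexes. Each array measured total RNA from 50 whole virgin flies, aged 5 to 7 days, that came from low-density crosses of one strain. Replicates A, B and C of a strain are separate samples of flies. INV1 flies were homozygous, in a w1118 background, for an engineered inversion in the right arm of the second chromosome, with one breakpoint inside an ultraconserved region, and they carried a working mini-white gene that gave them red eyes. By the scheme of strain construction, as read here, REV1 flies were derived from INV1 by a further heat shock of the FLP recombinase, which returned the segment to its standard order and left mini-white without function, so that they had white eyes and an intact region. Both strains kept parts of the P elements used to build the inversion. INV1 and REV1 therefore differed in gene order, in eye colour and in their history of heat shock and culture, and the effects of these cannot be told apart in this pair. Each strain was 1 engineered line. The remaining strains served as a frame for the comparison: INV2 (inverted, red eyes) and REV2 (revertant, white eyes), REC (standard order before induction, red eyes) and SIM1 (standard order after a failed induction, white eyes).

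In Drosophila, the white gene encodes a transporter that carries pigment precursors into the pigment cells of the eye, and mini-white is the shortened form used to mark transgenes. Genes inside highly conserved gene blocks are often controlled by regulatory elements that lie at a distance, within or beyond neighbouring genes, so a breakpoint can separate a gene from its regulators. In adult females much of the RNA of the whole body comes from the ovaries, whose content of eggs and nurse cells changes with age, food and mating.

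The deposited values were linear fluorescence intensities of 16637 transcripts, listed by FlyBase transcript identifier, and they were compared on the log2 scale by limma. The spread between arrays was estimated from the 18 female arrays, and the threshold for a call was a p of 0.01 after Benjamini-Hochberg adjustment over all transcripts. The 6 arrays were among the tightest of the series. The SD between replicates, as a median over transcripts, was 0.0816 on the log2 scale in INV1 females and 0.0819 in REV1 females, against 0.0699 to 0.121 in females of the other strains and 0.0977 to 0.23 in males. The identifiers of 44 transcripts (0.264%) were found in the gene table used, 16 of them with a single gene, so the remaining transcripts are given by identifier. None of 114 symbols in lists of eye, ovary, testis, stress and other genes could be matched, and the tissue and cell type content of the samples was not checked by markers.

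Between INV1 and REV1 females 881 transcripts were called (5.3% of all transcripts), of which 457 were higher in INV1 (2.75%) and 424 lower (2.55%). At an unadjusted p under 0.05 the count was 4596 (27.6%), and at an adjusted p under 0.05 it was 2183, of which 1060 were higher and 1123 lower. Most of the called differences were small. Their median size was 0.50 on the log2 scale, the smallest was 0.26 and the largest 2.94, whereas the median standard error over all transcripts was 0.0899. The higher transcripts moved further than the lower ones. Differences of more than 2-fold were found for 28 transcripts that were higher in INV1 and for 5 that were lower, and of the 426 called differences smaller than 0.5 on the log2 scale, 256 were lower in INV1 and 170 higher. In each of the 881 transcripts the 3 INV1 arrays and the 3 REV1 arrays did not overlap, which was so for 35.5% of all transcripts.

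The number of calls depended on single arrays. It fell to 277 without INV1 replicate A, to 450 without INV1 replicate B, to 166 without INV1 replicate C, to 131 without REV1 replicate B and to 136 without REV1 replicate C, and it was 1154 without REV1 replicate A. In each of these settings one strain kept 2 arrays. A one-way comparison of these 6 arrays alone, with the spread of each transcript taken from its own values, called 2 transcripts.

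The calls were concentrated among transcripts of intermediate brightness. When the transcripts were ordered by their mean over the 18 female arrays and divided into 4 classes of equal size, the dimmest held 13 of the calls (1.48%), the next 346 (39.3%), the third 440 (49.9%) and the brightest 82 (9.31%). The brightest class had a smaller median standard error (0.0834) than the middle classes (0.107 and 0.100) and also smaller differences, with a median size of 0.10 over all its transcripts against 0.18 and 0.17.

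**Figure D1:**
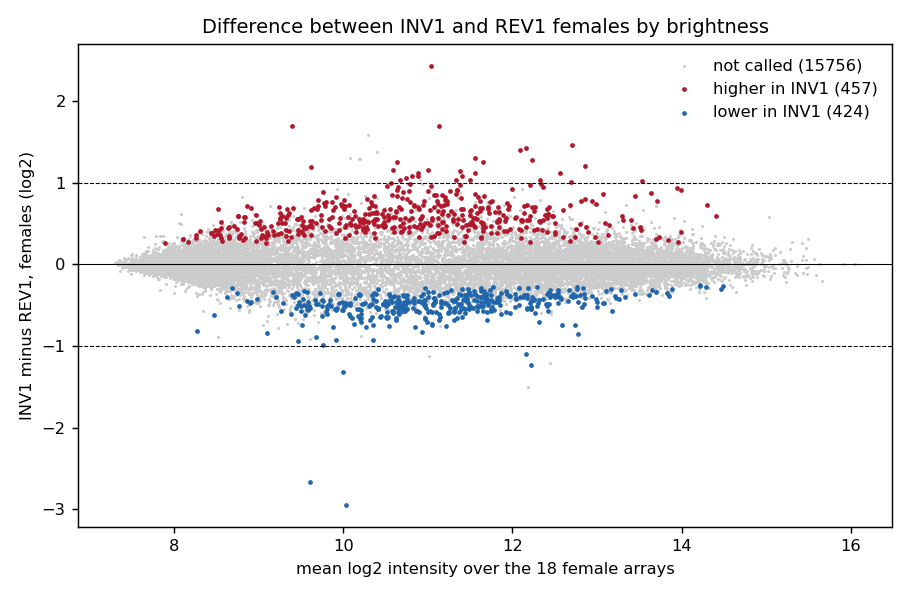
Log2 difference between INV1 and REV1 females (vertical axis) against the mean log2 intensity over the 18 female arrays (horizontal axis) for 16637 transcripts, with 457 called higher in INV1 in red, 424 called lower in blue and dashed lines at a 2-fold difference. The called transcripts lie mostly between 0.26 and 1 in size, and 2 lower transcripts and 1 higher one stand apart at more than 2 on the log2 scale.

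FBtr0070490 had the largest increase in INV1. Its deposited intensity was 4371, 4177 and 4306 on the INV1 arrays and 824, 852 and 817 on the REV1 arrays, so that the strains were separated by far more than the spread within either. On the normalized log2 scale the means were 12.39 ± 0.03 (SD, n = 3) in INV1 and 9.96 ± 0.03 in REV1, a difference of 2.43 (SE 0.0742, limma adjusted p = 2.57e-12), or 5.39-fold. Across the other female groups the level followed eye colour: it was 12.23 in INV2 and 11.87 in REC, both red-eyed, and 10.16 in REV2 and 9.66 in SIM1, both white-eyed. The INV2 minus REV2 difference was 2.07 and the REC minus SIM1 difference was 2.21.

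FBtr0076527 had the next increase, although one of nearly the same size as that of a transcript described with the tests between pairs. Its log2 values were 10.29, 10.48 and 10.33 in INV1 and 8.83, 8.47 and 8.70 in REV1, with no overlap. The difference was 1.70 (SE 0.114, limma adjusted p = 2.97e-07), or 3.25-fold. Here the revertants were not alike. The REV2 mean of 9.35 ± 0.15 was close to the INV2 mean of 9.51 ± 0.20, and the INV2 minus REV2 difference of 0.15 did not pass the test (adjusted p = 0.678). The REC minus SIM1 difference was 0.98 (limma adjusted p = 0.00021), and its test against the INV1 pair was not passed (adjusted p = 0.0844).

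FBtr0086478 and FBtr0086479 had the largest decreases. FBtr0086478 was at 8.61, 8.64 and 8.59 on the INV1 arrays and at 11.80, 11.54 and 11.33 on the REV1 arrays. Its difference was -2.94 (SE 0.145, limma adjusted p = 3.14e-09), which was 7.69-fold. FBtr0086479 had deposited intensities of 276, 275 and 277 in INV1 and of 1807, 1683 and 1504 in REV1. Its log2 difference on the normalized scale was -2.66 (SE 0.0765, limma adjusted p = 1.97e-12), which was 6.32-fold on that scale. In the values as deposited the log2 difference of FBtr0086479 was -2.59. In both transcripts the REV1 arrays were spread more widely than the INV1 arrays. Both followed eye colour in females of the other strains as well, with INV2 minus REV2 differences of -2.68 and -2.43 and REC minus SIM1 differences of -3.78 and -3.45. As signal over background could not be measured, the true change of transcripts that were this dim in one strain may differ from the measured one.

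**Figure D2:**
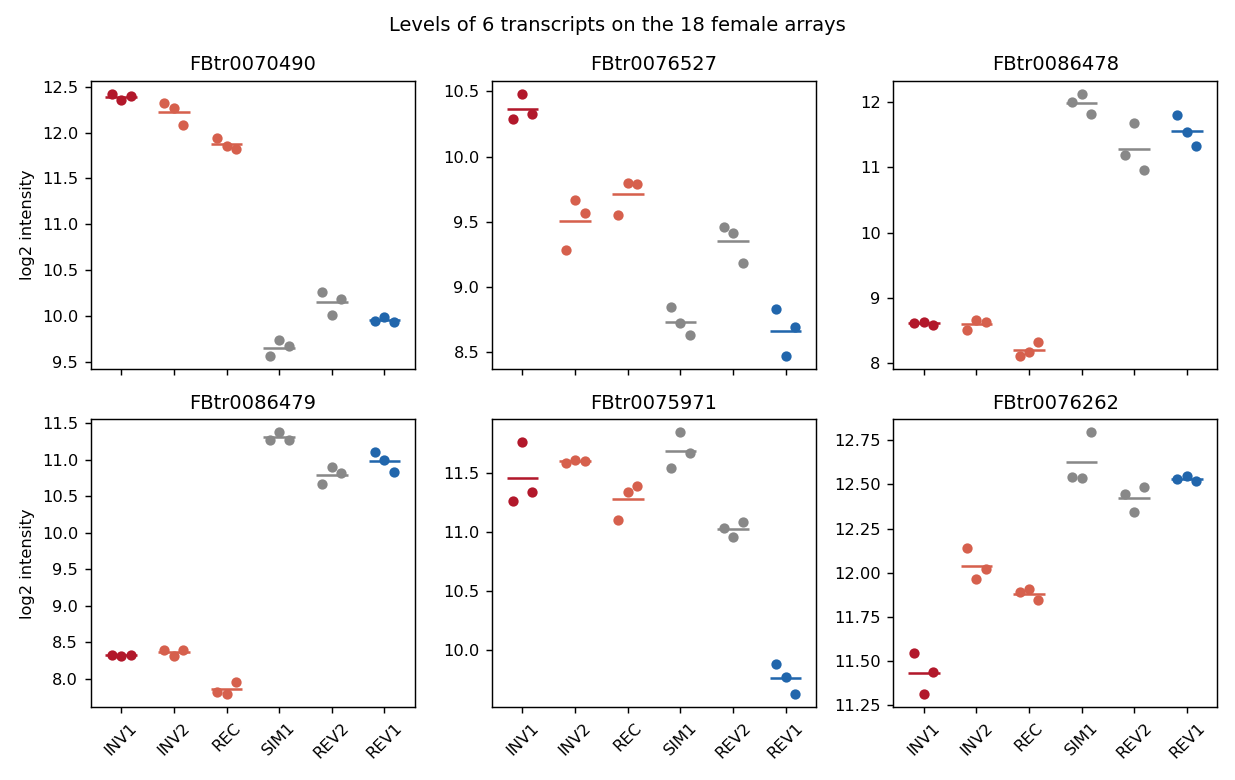
Normalized log2 intensity (vertical axes) of 6 transcripts on each of the 18 female arrays, in columns by strain, with points for replicates A, B and C from left to right and bars for strain means (INV1 dark red, INV2 and REC lighter red, REV1 blue, SIM1 and REV2 grey). FBtr0070490, FBtr0086478, FBtr0086479 and FBtr0076262 separate red-eyed from white-eyed strains, and FBtr0076262 is lowest in INV1. FBtr0076527 is highest in INV1 and as low in SIM1 as in REV1. FBtr0075971 is low in REV1 alone, with a mean of 9.76 against 11.02 to 11.68.

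Of the 16 transcripts matched to a single gene, 2 were called. Fatp1 (FBtr0080133), whose product belongs to the family of fatty acid transport proteins, was at 12.21, 11.96 and 12.26 on the INV1 arrays and at 11.70, 11.52 and 11.52 on the REV1 arrays. It was higher in INV1 on every array, by 0.57 (SE 0.105, limma adjusted p = 0.00324), and was no longer past the threshold without INV1 replicate A or C or REV1 replicate B or C. The corresponding differences were 0.27 for INV2 minus REV2, 0.38 for REC minus SIM1 and 0.53 for INV1 minus REV1 in males.

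The other, alpha-Spec (FBtr0072789), encodes a subunit of spectrin, the protein of the cytoskeleton under the cell membrane. It was at 12.03, 11.98 and 12.08 in INV1 and at 11.76, 11.55 and 11.62 in REV1, a difference of 0.39 (SE 0.0884, limma adjusted p = 0.00865) that kept its call in 15 of 28 other settings. Its INV2 minus REV2 difference was 0.03 and its REC minus SIM1 difference -0.04. The 14 transcripts that were not called had differences between -0.22 and 0.31. At these ends, and named for that after their values had been seen, were His4r, a replacement gene for histone H4 (-0.22, adjusted p = 0.0309), and LanA, a laminin chain of basement membranes (0.31, adjusted p = 0.15).

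The levels of the called transcripts in the strains that did not enter the comparison were examined next. The 457 transcripts higher in INV1 had a mean log2 intensity of 11.17, 11.10 and 11.15 on the INV1 arrays and of 10.67, 10.50 and 10.46 on the REV1 arrays, as their choice required. The other strains lay in between, a place that this choice favours. They were at 10.96 ± 0.02 (SD, n = 3) in REC, 10.90 ± 0.05 in INV2, 10.77 ± 0.05 in SIM1 and 10.61 ± 0.06 in REV2. The order of strains was the reverse for the 424 lower transcripts: 10.92 in INV1, 11.05 in REC, 11.11 in INV2, 11.18 in SIM1, 11.27 in REV2 and 11.42 in REV1. Neighbours in this order were not all separated. For the higher transcripts the arrays of INV2 (10.85 to 10.95) and REC (10.94 to 10.98) overlapped, and REV1 replicate A lay within the REV2 arrays (10.56 to 10.68), as it did for the lower transcripts. For the lower transcripts REC (11.01 to 11.11) overlapped INV2 (11.04 to 11.19), INV2 overlapped SIM1 (11.11 to 11.30) and SIM1 overlapped REV2 (11.21 to 11.34).

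Both lists also varied between arrays of one strain, in opposite directions. Within a strain the range of the mean of the higher list was 0.041 to 0.211, against 0.60 between INV1 and REV1, and that of the lower list was 0.047 to 0.196, against -0.50. In 5 of 6 strains the array with the lowest mean of the higher list had the highest mean of the lower list, and REV1 was the exception. In every strain but REV2, replicate A had the highest mean of the higher list and the lowest mean of the lower list. In REV2 replicate A had the lowest and the highest mean, respectively. Whether a batch shared by letter lay behind this was not tested.

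**Figure D3:**
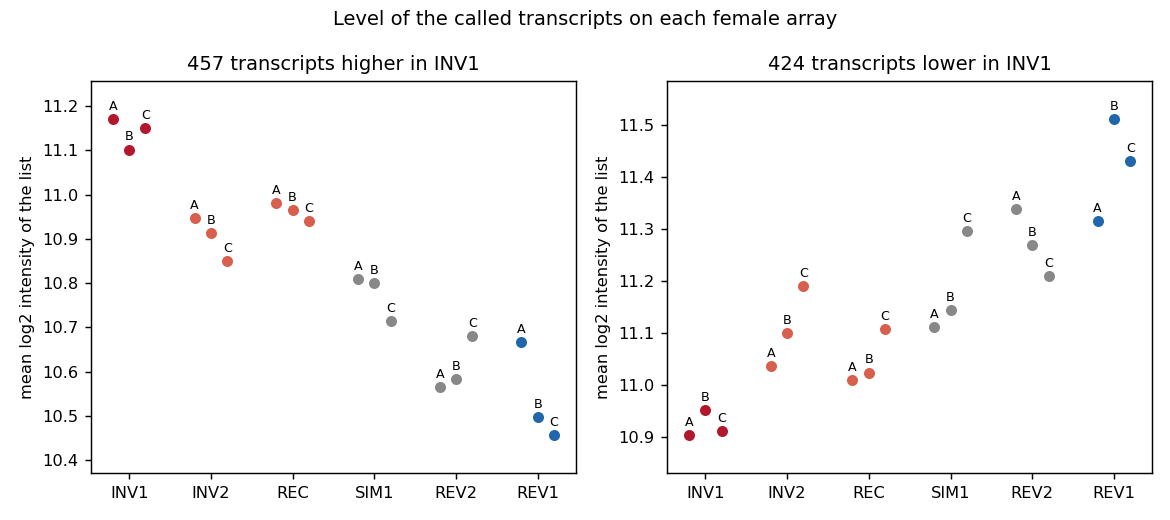
Mean log2 intensity (vertical axes) on each female array, lettered by replicate and placed by strain, of the 457 transcripts higher (left) and the 424 lower (right) in INV1 than in REV1 females. INV1 and REV1 chose the lists and hold the ends of both, and REC, INV2, SIM1 and REV2 follow in between, with REV1 replicate A within the range of REV2.

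For each called transcript, the mean of every other strain was placed nearer to INV1 or nearer to REV1. REC was nearer to INV1 in 652 of 881 transcripts (74%, against 62.1% of all transcripts), INV2 in 592 (67.2%, against 50.3%), SIM1 in 381 (43.2%, against 49%) and REV2 in 120 (13.6%, against 37.6%). The called transcripts did not fall into a single pattern. All red-eyed strains lay with INV1 and all white-eyed strains with REV1 in 172 transcripts (19.5%, against 5.9% of all). In 186 (21.1%, against 8.09%) REV2 alone lay with REV1, and in 114 (12.9%, against 6.19%), of which 101 were higher in INV1, INV2 alone lay with INV1. REC and SIM1 lay with INV1, and INV2 and REV2 with REV1, in 15.3% (against 18.9%). In 57 transcripts (6.47%, against 6.2%) all 4 strains lay with REV1, and in 34 (3.86%, against 6.44%) with INV1.

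INV2 and REV2 provide an inverted and a reverted strain in separate samples. INV2 and REV2 females differed in 67 transcripts (0.403%), 44 higher and 23 lower in INV2. This count was 42, 33 and 33 without INV2 replicates A, B and C and 34 without REV2 replicate A. The called transcripts of INV1 and REV1 moved mostly the same way there: 827 of 881 (93.9%, against 62.1% of all transcripts) had the same direction. The median difference of the 881 in that direction was 0.18, against 0.50 between INV1 and REV1. They were chosen by the latter difference, so a smaller size elsewhere was favoured by the choice and does not by itself show a weaker change. Of the 881 transcripts, 33 were called in the same direction and 0 in the opposite one, which is 3.75% of them and 49.3% of the 67. The INV2 and REV2 arrays were more variable (median SD 0.104 and 0.121).

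REC and SIM1 differ in eye colour, heat shock and the state of their P elements, without an inversion in either. Per the paper, the P elements are intact in REC, whereas those of SIM1 have lost an exon of mini-white. They are also separate lines. Between their females 46 transcripts were called (0.276%), 28 higher and 18 lower in REC, with 20 and 23 calls without REC replicates A and B and 28 and 26 without SIM1 replicates A and B. Of the 881 transcripts, 776 (88.1%, against 64.4% of all transcripts) had the same direction in REC minus SIM1 as in INV1 minus REV1. The median difference of the 881 in that direction was 0.13, with the same limit from their choice. Both comparisons called 14 of them in the same direction, 1.59% of the 881 and 30.4% of the 46. Such a shift was not confined to pairs that differ in eye colour or gene order. SIM1 and REV2 are both white-eyed with standard order. In SIM1 minus REV2 the median difference was 0.11 for the higher list, -0.10 for the lower list and -0.01 for all transcripts. The list medians in REC minus SIM1 were 0.17 and -0.11. In INV2 minus REC, both red-eyed, they were -0.04 and 0.08, the other way.

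Whether the INV1 pair differed from the other pairs was tested transcript by transcript. Between the INV1 and INV2 pairs 14 transcripts were called (0.0841%), and in 10 of them the pairs had opposite signs. In all of these 10 the INV2 pair had the larger difference and INV1 minus REV1 was not called (limma adjusted p 0.012 to 0.869). FBtr0073124 (0.29, limma adjusted p = 0.012) and FBtr0113937 (0.33, limma adjusted p = 0.0134) passed the looser threshold of 0.05 in the INV1 pair. The signs of the others in that pair are uncertain. The difference was larger in the INV1 pair in 3, which were singled out after their values had been seen. FBtr0076527 was one, with 1.70 against 0.15 (difference of differences 1.55, limma adjusted p = 0.000185). FBtr0075971 was another. Its log2 values were 11.26, 11.76 and 11.34 in INV1 and 9.88, 9.77 and 9.62 in REV1, and the difference of 1.70 was set by REV1, since females of the other 4 strains had means of 11.02 to 11.68. It exceeded the INV2 pair (0.58) by 1.12 (limma adjusted p = 0.00703) and had the opposite sign in REC minus SIM1 (-0.41). FBtr0076262 was at 11.54, 11.31 and 11.44 in INV1 and at 12.53, 12.55 and 12.52 in REV1. Its difference of -1.10 exceeded that of the INV2 pair (-0.39) by -0.72 (limma adjusted p = 0.00854). The REC minus SIM1 difference of FBtr0076262 was -0.74 (limma adjusted p = 6.75e-05), and its test against the INV1 pair was not passed (adjusted p = 0.196). Every red-eyed female array (12.14 or less) lay below every white-eyed one (12.35 or more) in this transcript. Against the pair of REC and SIM1, 16 transcripts were called (0.0962%), 12 of them with opposite signs. In some of the 12 the INV1 minus REV1 difference was not called (FBtr0082171, -0.01 against 0.91). In others the REC minus SIM1 difference was small (FBtr0074908, 0.55 against -0.05). The median standard error of a difference between pairs was 0.127, against 0.0899 for a difference within a pair.

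**Figure D4:**
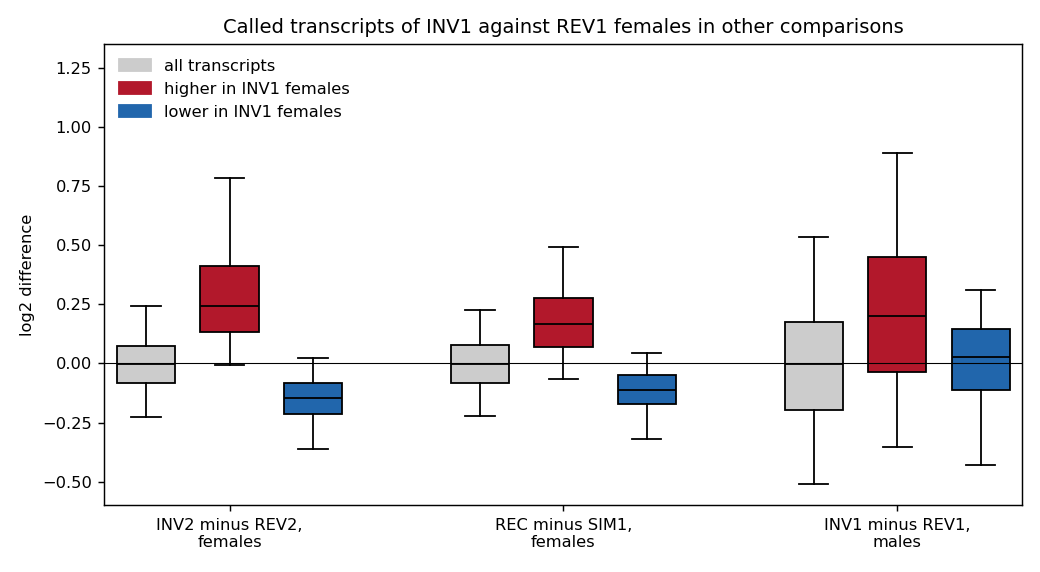
Log2 differences (vertical axis) of all 16637 transcripts (grey), the 457 higher in INV1 females (red) and the 424 lower (blue) in 3 comparisons made on other arrays. Boxes span the quartiles with a line at the median, and whiskers the 5th to the 95th percentile. In INV2 minus REV2 the medians are 0.24 and -0.15, in REC minus SIM1 0.17 and -0.11, and in INV1 minus REV1 males 0.20 and 0.03.

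In males of the same strains 12 transcripts were called (0.0721%), 8 higher and 4 lower in INV1, with 2701 at an unadjusted p under 0.05. Of these 12, 9 were among the 881 (1.02% of the 881 and 75% of the 12), all in the same direction. The differences of the 881 in males had the same direction in 506 (57.4%, against 55.9% of all transcripts), namely in 317 of the 457 higher transcripts (69.4%) and in 189 of the 424 lower ones (44.6%). The male arrays of INV1 were far more variable than the female ones, with a median SD of 0.23. INV1 replicates A and B, REC replicate B and SIM1 replicate C deviated alike, the correlations of their deviations from the male median being 0.762 to 0.921 over transcripts and at most 0.235 with any other male array. The highest correlation between 2 of the other male arrays was 0.796, so that likeness of this size between 2 arrays was not peculiar to these 4. This highest value does not tell whether a further group of arrays deviated alike. Without these 4 arrays, which left 1 INV1 male array whose spread was taken to be that of the other groups, 760 of the 881 (86.3%, against 60.7% of all transcripts) had the same direction and 14 transcripts were called.

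With single male arrays left out, the share with the same direction lay between 46.3% without INV1 replicate C (against 53.2% of all transcripts) and 80.2% without INV1 replicate B (against 62.4%). The male count was 7 without INV1 replicate B or C, INV2 replicate B, REC replicate A, REV1 replicate A or SIM1 replicate B, 5 and 6 without REV1 replicates B and C, and 28 without SIM1 replicate C. The INV1 minus REV1 difference itself differed between the sexes in 10 transcripts (0.0601%), larger in size in females in 6 of them and opposite in sign in 4. Of these 4, FBtr0081240 alone was called in females (limma adjusted p = 0.00102). In males FBtr0086478 differed by -2.99 and FBtr0086479 by -3.12, and FBtr0076527 rose by 2.30 (limma adjusted p = 2.76e-05). FBtr0070490 differed by 1.63 in males, which did not pass the limma test (SE 0.294, adjusted p = 0.035). That SE was pooled over the strains, whose SD was 0.69 in REC and 0.64 in SIM1 males but 0.12 in INV1 and 0.17 in REV1. For FBtr0070490 every red-eyed male array (12.28 or more) lay above every white-eyed one (11.54 or less). FBtr0075971 and FBtr0076262 differed by 0.32 and -0.01 in males, and the differences between the sexes, 1.38 and -1.09, passed the test.

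The called transcripts were also set against sex bias, which was measured in REC, INV2, SIM1 and REV2 and so on none of the arrays compared. Among the 457 transcripts higher in INV1 females, 370 (81%) were called as higher in males than in females of those strains and 52 (11.4%) as higher in females. Among the 424 lower ones, 33 (7.78%) were called as higher in males and 359 (84.7%) as higher in females. Of all transcripts 38.1% were called as higher in males and 47% as higher in females. The male minus female difference had a median of 0.84 (log2) for the higher transcripts, -1.17 for the lower ones and -0.09 for all transcripts. The split of all transcripts depended on the scaling between the sexes. By sign alone, 86.7% of the higher transcripts were higher in males and 88.9% of the lower ones higher in females, against 46.5% and 53.5% of all transcripts, and in the values as deposited the shares were 91.9% and 78.1%, against 60.9% and 39.1%.

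The share of calls changed with the size of the bias. Of 1398 transcripts that were higher in males by 1 to 2 on the log2 scale, 167 (11.9%) were higher in INV1 than in REV1 females and 10 lower, and of 4571 that were higher in males by up to 1, 223 (4.88%) were higher and 32 lower. Of 3243 that were higher in females by 1 to 2, 177 (5.46%) were lower in INV1 and 12 higher, and of 3744 that were higher in females by up to 1, 132 (3.53%) were lower and 34 higher. Stronger bias differed by sex. Of 1438 transcripts higher in females by 2 to 3, 58 (4.03%) were lower in INV1 and 3 higher, whereas of 566 higher in males by 2 to 3, 5 (0.883%) were higher and 2 lower. Of 1207 transcripts higher in males by more than 3, which were dim in females with a median log2 intensity of 8.09, 1 was higher and 3 were lower, and of 470 higher in females by more than 3, 12 were higher and 10 lower.

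**Figure D5:**
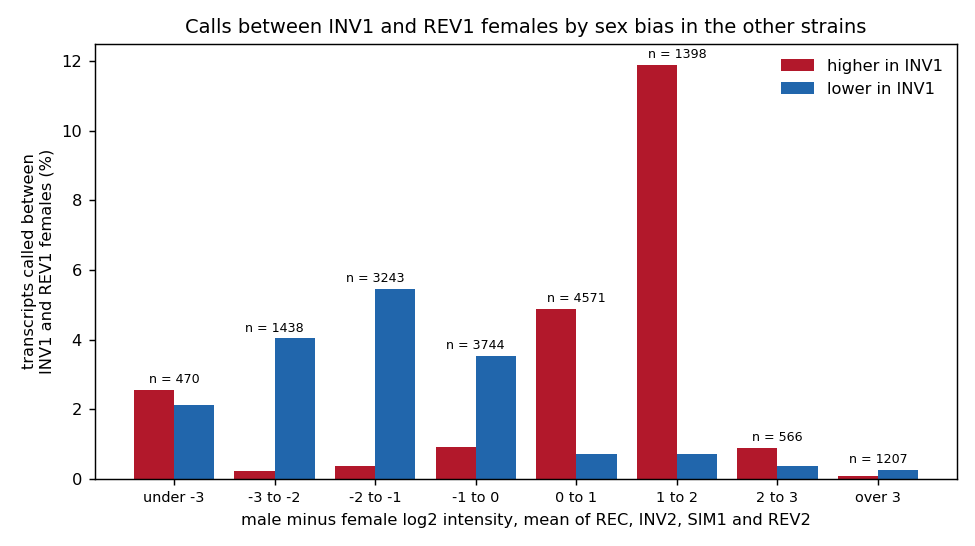
Percentage of transcripts called higher (red) or lower (blue) in INV1 than in REV1 females (vertical axis) in 8 classes of the male minus female log2 difference in REC, INV2, SIM1 and REV2 (horizontal axis), with the number of transcripts above each class. Higher calls reach 11.9% among transcripts higher in males by 1 to 2, and lower calls reach 5.46% among those higher in females by 1 to 2.

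Shifts in the median of whole classes were slight. The transcripts higher in males by 1 to 2 had a median INV1 minus REV1 difference of 0.08, and those higher in females by 1 to 2 of -0.06. The corresponding medians were 0.02 and -0.02 in INV2 minus REV2 and 0.04 and -0.03 in REC minus SIM1. As RNA came from whole flies, fewer cells of a type and less RNA per cell cannot be told apart, and the part of organ size or ovary content in the differences between INV1 and REV1 females was not tested.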

How the data were processed

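The array service labelled, hybridized and scanned the samples. Per the methods, the authors took the median of the log-transformed probe values of a transcript and then applied the scale method of limma between arrays. The deposited values are linear intensities (135.4 to 54214). Within a sex the arrays share nearly one distribution, with differences of at most 0.976% at any rank in females and 1.15% in males, which scaling alone would not produce. A shift of most transcripts in one direction would therefore not be seen. The probe background correction is not given in the sources used here.

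The log2 of each intensity was scaled between the 36 arrays (normalizeBetweenArrays), which moved the female median from 10.39 to 10.67. The female log2 differences and folds given here are therefore slightly larger than in the deposited values (2.43 against 2.37 for FBtr0070490 on the log2 scale). The tests used limma 3.58.1 (lmFit and eBayes) in R 4.3.3 on 16637 transcripts without a filter, with one mean per strain over 18 arrays of a sex, or over all 36 for differences between the sexes. The code was tested on simulated data. Named by rule were the 2 transcripts with the largest difference in each direction among the called, and called ones matched to a single gene of a table of assembly Release 6 plus ISO1 MT. The arrays compared, the lists and the rules were chosen with earlier results of these data known. No further annotation of the identifiers was used. The alternatives were other normalizations, a filter on dim transcripts, other variance models, weights for arrays, a block for the replicate letter, another threshold and leaving out arrays. Leaving out 4 male arrays was added after seeing the data, and so was repeating the shares by sex bias under the other alternatives. These shares were not repeated without the 4 male arrays, although REC replicate B and SIM1 replicate C entered the sex bias. Without control probes signal over background was not measured, and precision is limited by how many arrays there are.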

Additional observations from a re-analysis of the deposited data

Results flagged for a closer look

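The INV1 minus REV1 difference of females differed between contrasts in these cases. It differed from INV2 minus REV2 in 14 transcripts, from REC minus SIM1 in 16 and from that of males in 10, each by a test of the difference itself (limma, adjusted p under 0.01). These small counts were sensitive to single arrays. The first was 7 to 9 without any of INV2 replicates B and C, REC replicates A, B and C, REV1 replicates B and C, REV2 replicates A and C or SIM1 replicate A. The second was 8 to 10 without any of INV1 replicates A and C, REC replicates A, B and C, REV1 replicate B or SIM1 replicates A and B, and 36 without REV1 replicate A. The third stayed within 1.5 times of its value in 6 of 36 such settings.

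FBtr0076527 was higher in INV1 than in REV1 by 1.55 more than in the INV2 pair. FBtr0086479 was lower by less than between REC and SIM1, with a difference of 0.79 between the pairs (adjusted p = 0.00294). FBtr0075971 differed from the INV2 pair by 1.12, from REC minus SIM1 by 2.10 and from males by 1.38 (adjusted p = 2.6e-05). FBtr0076262 differed from the INV2 pair by -0.72 and from males by -1.09. In the male arrays FBtr0075971 was at 9.57 ± 0.05 in REV1 and at 9.63 to 9.89 in the other strains, and in REV1 females at 9.76 ± 0.13, a closeness that depends on the scaling between the sexes, since the deposited intensities were 663 to 790 in REV1 females and 859 to 1297 in males.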

How the results depend on the processing

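Counts of calls moved with the treatment of the variance more than with normalization. In the order INV1 minus REV1 females (881), INV2 minus REV2 (67), REC minus SIM1 (46), the INV1 pair against the INV2 pair (14) and against REC and SIM1 (16), INV1 minus REV1 males (12) and the difference between the sexes (10), an adjusted p under 0.05 gave 2183, 178, 79, 25, 55, 39 and 21 calls, and an unmoderated one-way comparison of only the arrays compared gave 2, 0, 4, 2, 5, 0 and 0. Array weights gave 3376 calls between INV1 and REV1 females (1693 higher, 1683 lower), 71 for REC minus SIM1, 25 and 172 for the differences between pairs, 3930 in males and 4172 between the sexes. With only the arrays compared, 12 were called for INV2 minus REV2, 17 for REC minus SIM1, 7 between the pairs of INV1 and INV2, 4 in males and 0 between the sexes. Lower calls outnumbered higher ones between INV1 and REV1 females at the looser threshold (1060 higher, 1123 lower) and without SIM1 replicate C (515 and 538). Quantile normalization gave 8 calls between the pairs of INV1 and INV2. The difference between the sexes gave 3 calls for the values as deposited or scaled within each sex, 2 with an intensity trend and robust variances, and 6 without the 4 male arrays. When single arrays were left out, the 7 counts lay between 131 and 1154, 33 and 82, 20 and 45, 7 and 16, 8 and 36, 5 and 28, and 2 and 16.

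The share of calls with the same direction was 73.5% in INV2 minus REV2 and 77.1% in REC minus SIM1 with array weights, 88.9% and 84.5% at an adjusted p under 0.05, and 100% of 2 calls in each under the one-way comparison, which gave 100% in males too. With only the arrays compared it was 97.2% in INV2 minus REV2 and 60.8% in males, and in males it was 61.9% without the dimmest transcripts and 86.3% without the 4 arrays. With an array left out it lay between 85.4% and 99.3% in INV2 minus REV2, between 74.5% and 91.4% in REC minus SIM1 and between 46.3% and 80.2% in males, where the share over all transcripts was 53.2% and 62.4% in these settings, so that its relation to all transcripts turned. Among called transcripts higher in INV1, 86.7% were higher in males by sign, and among lower ones 88.9% were higher in females (46.5% and 53.5% of all transcripts). These shares were 71.1% and 80.6% with array weights, 77% and 84.5% at an adjusted p under 0.05, 91.9% and 78.1% for the values as deposited or scaled within each sex (60.9% and 39.1% of all transcripts), and 100% and 0% under the one-way comparison, with 1 call each. The second was 81.9% with only the arrays compared. With an array left out they were 80.3% to 92.6% and 79.4% to 91.9%.

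Deviations of same-lettered INV1 and REV1 females had correlations of -0.19, -0.04 and 0.23. These values cover only INV1 and REV1 and were not set against arrays of different letters. They cannot show whether the letters mark a shared batch, and the called lists had a pattern by letter in most strains. The letter as a replicate block gave 890 calls between INV1 and REV1 females and 5 between the sexes, and moved no other count by more than 1.5 times. The difference of FBtr0070490 kept its call in 28 of 28 settings and those of FBtr0076527, FBtr0086478, FBtr0086479, FBtr0075971 and FBtr0076262 in 27 of 28. These differences kept their sign in every setting. The cause of these shifts was not tested, apart from the smaller number of arrays or the looser threshold where these define the setting.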
